A study of Mus musculus with 4 samples.

Results

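The genes described here are those of the major histocompatibility complex (MHC, called H2 in the mouse) and of antigen presentation. They were chosen by name: every mouse symbol that starts with H2-, together with B2m, Tap1, Tap2, Tapbp, Tapbpl, Psmb8, Psmb9, Psmb10, Psme1, Psme2, Erap1, Cd74, Ciita, Nlrc5, Cd1d1, Rfx5, Rfxap, Cd80, Cd86 and Cd274. Of the 70 such symbols in the gene table used, 50 matched at least 1 probe, out of 17016 named genes on the array. These 50 comprised 31 H2- symbols and 19 others, were read by 74 of 41174 gene probes, and lay on chromosome 17 in 36 cases. Of the 20 symbols with no matched probe, Nlrc5, H2-Ea and H2-Eb1 are the best known, and the other 17 are H2- symbols. RNA was measured on 4 one-colour arrays, each of 1 sample of cells sorted from glandular stomach tumours of K19-Wnt1/C2mE mice at 30 weeks of age. One group of 2 arrays held Lin- CD44+ cells and the other group of 2 arrays held Lin- CD44- cells, where Lin- means that cells with lineage markers had been removed. All 4 samples therefore share the transgenic background, in which a keratin 19 promoter drives Wnt1 in the stomach epithelium and C2mE stands for the transgenes of the prostaglandin E2 enzymes Ptgs2 and Ptges. CD44 is a cell-surface receptor for hyaluronan, and the question was how the RNA of tumour cells with and without it differs. Which lineage markers were used, the H2 haplotype of the mice, and whether the 2 arrays of a group came from separate mice are not given in the sources used here. What the p-values measure is then the spread among the 4 samples used, part or all of which may be technical.

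Class I molecules consist of a heavy chain (H2-K1, H2-D1) and beta-2 microglobulin (B2m) and show peptides from inside a cell to CD8 T cells. The proteasome cuts these peptides, the transporter Tap1-Tap2 carries them into the endoplasmic reticulum, Erap1 trims them, and tapasin (Tapbp) helps to load them. Interferon-gamma raises the genes of this route together, and exchanges the catalytic proteasome subunits, with Psmb8 replacing Psmb5, Psmb9 replacing Psmb6 and Psmb10 replacing Psmb7. Class II molecules (H2-Aa with H2-Ab1) show peptides from endosomes to CD4 T cells and depend on the invariant chain Cd74, the peptide editor H2-DM and the transactivator Ciita. Professional antigen-presenting cells express class II constantly, and epithelial cells can be induced to express it.

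Levels are given as log2 of the processed signal relative to the array's 75th percentile, so that 0 is the 75th percentile and 1 unit is a doubling. They are listed in the order first CD44+, second CD44+, first CD44- and second CD44- array, and differences are CD44+ minus CD44- with the standard error of limma's fit. A level belongs to its probe and was compared only between arrays. The 75th percentile of processed signal ran from 244 on the first CD44+ array to 527 on the second CD44- array, and 53.1% to 69.6% of gene spots were well above background, with the first CD44+ array lowest in both. The second CD44- array stood apart: it correlated at 0.877 and 0.927 with the CD44+ arrays over the 21045 genes tested, where the first CD44- array correlated at 0.948 and 0.963. For genes at least 2-fold lower in CD44+ cells whose difference moved by over 1.5 times without the second CD44- array, both values are given. Endothelial and fibroblast markers are the exception. Fewer cells of a type and less RNA per cell cannot be told apart in such bulk samples.

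A subset of the genes of the class I and class II routes had lower signal in CD44+ cells. The other genes tested differed by less than 2-fold in the group means of the probe tested. The subset comprised both TAP subunits, the immunoproteasome subunits Psmb8 and Psmb9, B2m, the class II chain H2-Ab1, the checkpoint ligand Cd274 (PD-L1) and the non-classical gene H2-Q8. The 6 of them above background on all 4 arrays were 2.29-fold to 3.95-fold lower in the group means. By processed signal, Tap1 was at least 1.80-fold lower in the same means and Cd274, mainly through the second CD44- array, at least 3.00-fold. With normexp background correction their log2 differences were -0.03 and -0.90, smaller than these limits, which thus depend on the background correction. None of these 8 genes passed limma's test after Benjamini-Hochberg adjustment over all genes. Of the 50 genes, 35 were tested, the requirement being a probe well above background throughout 1 group or the other, and 31 of these were well above it on all 4 arrays. Of all genes tested, 0.399% passed at an adjusted p under 0.05 (0.375% lower and 0.0238% higher in CD44+ cells), and 0 of the 35 did. At an unadjusted p under 0.05, 6 of 35 were lower and 0 higher in CD44+ cells, where the background was 7.9% lower and 2.86% higher. By measured signal, 8 of 35 (22.9%) were at least 2-fold lower without overlap of the groups, against a background of 9.66%, and 0 were higher by that measure, against 3.8%. With signals below the dimmest level called well above background on an array raised to that level, 6 of 35 (17.1%) were, against 5.96% of all genes, Tap1 and Cd274 no longer being among them; this count was added after seeing the data. As measured and without the second CD44- array, the count was 4 of 35 (11.4%), namely H2-Ab1, Psmb9, Tap1 and Cd274, against 9.02% of all genes. Over the 4 ways of leaving out 1 array it ran from 4 to 10. The groups did not overlap, with CD44+ lower, for 13 of 35 (background 17.2%) and, with CD44+ higher, for 2 of 35 (background 22.4%), Erap1 and Rfxap. Tap1, Cd274, H2-DMb2 and Ciita were tested only because they were well above background on both CD44- arrays, which they were not on both CD44+ arrays. Among the 31 genes above background on all 4 arrays, 6 were at least 2-fold lower without overlap, where 4.29% of the 17173 such genes were, and 4 were lower at an unadjusted p under 0.05, where 3.11% were.

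The median log2 difference of the 35 genes was -0.21, and 28 of them were below 0. Over all 21045 genes tested the median was 0.16, and 8300 were below 0. Over the 31 genes above background on every array the median was -0.19, against 0.24 for the 17173 such genes. With all 50 genes included, dim probes too, it was -0.14. The highest of the 4 levels was on the second CD44- array for 12 of the 35 (34.3%, against 25.3% of all genes). It was on the first CD44- array for 11 of the 35, and for 3376 of all 21045 genes. The second CD44- array exceeded the first by 2-fold or more for 5 of 35 (14.3%, against 10.9% of all genes).

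**Figure D1:**
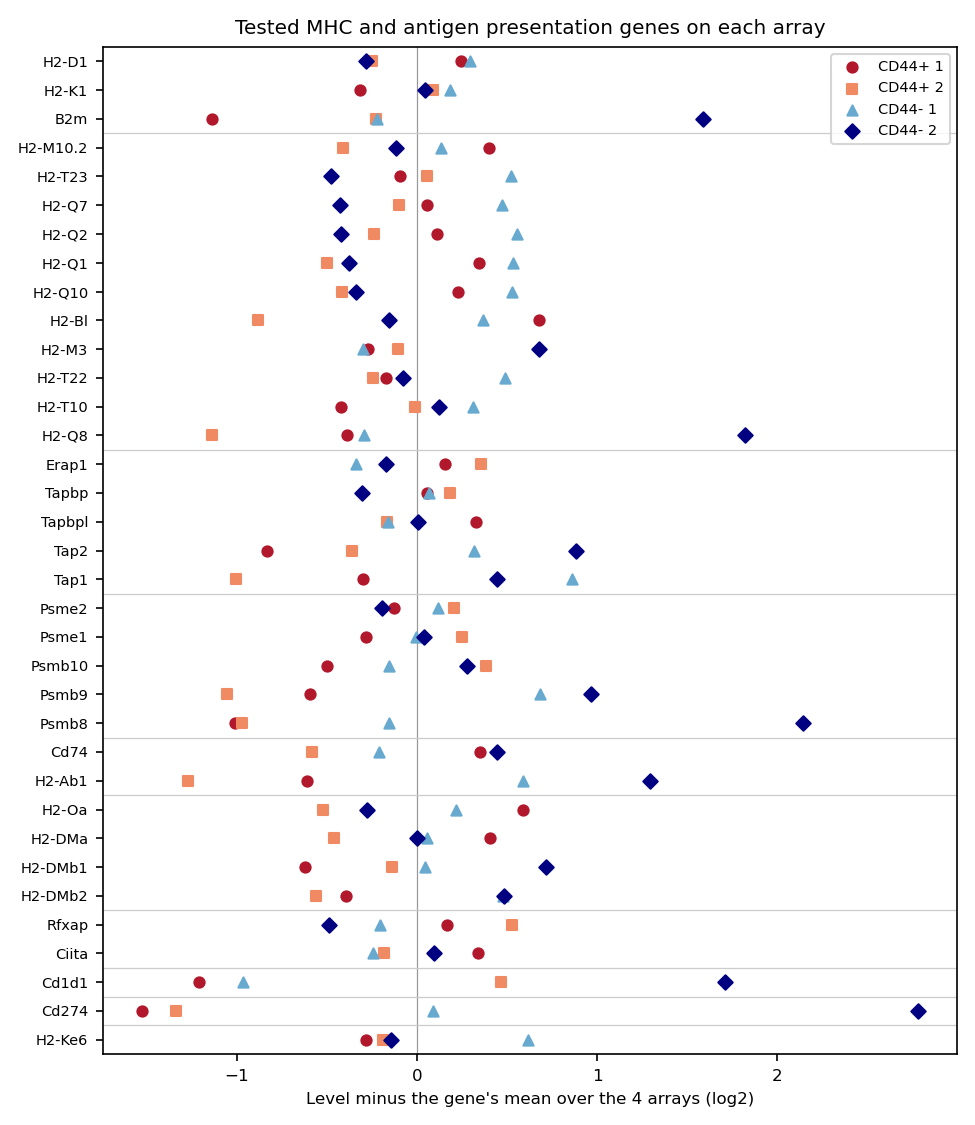
Level of each of the 35 tested genes on the 4 arrays, minus the gene's mean over them (horizontal axis, log2), with genes grouped by role and 1 symbol per array. B2m, H2-Q8, Psmb8, Cd1d1 and Cd274 have their highest point on the second CD44- array, set far to the right of the other 3 arrays in each except Cd1d1, while most class I heavy chain genes are highest on the first CD44- array.

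The classical class I heavy chains did not differ beyond their error. H2-K1 had levels of 6.67 and 7.08 in CD44+ cells and 7.17 and 7.04 in CD44- cells. The groups overlapped, and the difference was -0.23 ± 0.45 (adjusted p = 0.888), with the other 2 probes at -0.57 and -0.26. H2-D1 had 5.29 and 4.79 in CD44+ cells and 5.34 and 4.76 in CD44- cells, a difference of -0.01 ± 0.47 (adjusted p = 0.995). Its first arrays were both above its second ones, and its other probe gave -0.31. B2m, the light chain that all class I molecules share, had levels of 3.21 and 4.12 in CD44+ cells and 4.13 and 5.94 in CD44- cells. The second CD44+ and the first CD44- array nearly coincided, so that the separation came from the dimmest CD44+ array and the second CD44- array. B2m was 2.58-fold lower in the CD44+ mean (log2 -1.37 ± 0.67, unadjusted p = 0.075, adjusted p = 0.557), and its second probe gave -1.30. Without the second CD44- array its difference was -0.46, and without the first -2.27.

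The RefSeq promoters of B2m and H2-K1 (GRCm38.p6, the 250 bases before the start, 5′ to 3′ along the gene) are shown with the motif matches found in them, as the promoters of the light chain and of a heavy chain. Capitals mark matches on either strand to the core of the interferon-stimulated response element (ISRE, GAAA and GAAA parted by 2 bases) in B2m and to an NF-kB site (GGGGA, any base, TCCC) in H2-K1. The B2m window is chr2:122147437-122147686 on the plus strand and its match runs from -139 to -130. The H2-K1 window is chr17:34000334-34000583 on the minus strand, the first of 2 windows listed for that gene, with its matches from -125 to -115 on both strands.
B2m: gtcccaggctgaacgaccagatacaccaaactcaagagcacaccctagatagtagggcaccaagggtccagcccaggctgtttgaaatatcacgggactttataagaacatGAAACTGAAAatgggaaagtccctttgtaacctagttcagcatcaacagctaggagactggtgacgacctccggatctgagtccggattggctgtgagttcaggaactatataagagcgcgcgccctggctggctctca
H2-K1: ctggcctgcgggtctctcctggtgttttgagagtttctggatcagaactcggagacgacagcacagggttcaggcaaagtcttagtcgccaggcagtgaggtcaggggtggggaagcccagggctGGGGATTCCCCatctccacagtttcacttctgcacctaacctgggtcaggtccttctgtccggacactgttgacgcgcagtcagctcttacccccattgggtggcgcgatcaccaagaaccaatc
Windows were found for 37 of the 50 genes, 4 of which had more than 1. The ISRE core occurred in the windows of 3 of these genes (B2m, H2-T22 and H2-T23) and in 2.98% of 32851 promoter windows. The NF-kB site occurred in 3 (H2-K1, H2-D1 and H2-Q7) and in 0.289% of windows. The heavy chain genes are near copies of each other, so these shared matches are not independent. A match is a description of letters and not evidence of a bound factor, and other spellings of these elements were not searched.

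Among the non-classical class I genes, 11 of 20 were tested, and all 11 differences were below 0, from -1.52 to -0.01 with a median of -0.19. Their highest level was on the first CD44- array in 7 of the 11, as it was for 3376 of all 21045 genes tested. H2-T23, which encodes Qa-1, had levels of 5.35 and 5.50 in CD44+ cells and 5.96 and 4.96 in CD44- cells. The CD44- arrays lay on either side of the CD44+ arrays, and the difference was -0.04 ± 0.50 (adjusted p = 0.983). H2-M3, which presents formylated peptides, had -0.12 and 0.04 against -0.15 and 0.83, a difference of -0.38 ± 0.50 (adjusted p = 0.840) that was 0.11 without the second CD44- array. A dimmer second probe of H2-M3, well above background on 2 arrays, gave -1.38. H2-Q8 had -1.06 and -1.82 in CD44+ cells and -0.97 and 1.14 in CD44- cells. Only the second CD44- array stood clear of the others. H2-Q8 was 2.88-fold lower in the CD44+ mean (log2 -1.52 ± 0.71, unadjusted p = 0.064, adjusted p = 0.521), and the difference was -0.47 without that array. The heavy chain genes share much of their sequence, so signal cannot be assigned with certainty to 1 of them. H2-Q10 had 4 probes, of which 2 gave differences below 0 (-0.19 and -0.51) and 2 above (0.41 and 0.48). The other 9 non-classical genes were not well above background on any array.

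In the peptide loading complex, the lower CD44+ signal was that of the 2 transporter subunits. Tap1, which pairs with Tap2 as the transporter, had levels of -4.33 and -5.04 in CD44+ cells and -3.17 and -3.59 in CD44- cells. Both CD44- arrays were above both CD44+ arrays as measured, but neither CD44+ array had Tap1 well above background, so that it was at least 1.80-fold lower there in the mean (unadjusted p = 0.026, adjusted p = 0.345). For this lower limit a CD44+ signal that was dimmer than every probe called well above background on its array was raised to the dimmest of those. With normexp background correction, which holds dim signals together, its log2 difference was -0.03 in place of -1.31, so the limit holds only for the processed signal. Tap2 had levels of -3.12 and -2.64 in CD44+ cells and -1.97 and -1.40 in CD44- cells. It was above background on all 4 arrays without overlap and 2.29-fold lower in the CD44+ mean (log2 -1.20 ± 0.47, unadjusted p = 0.035, adjusted p = 0.393), or -0.53 with normexp correction. Tap1 and Tap2 kept a lower CD44+ level with either CD44- array left out, at -1.51 and -0.91 without the second and -1.1 and -1.48 without the first.

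Tapasin (Tapbp), which bridges the transporter and the class I heavy chain, had levels of 4.60 and 4.73 in CD44+ cells and 4.62 and 4.24 in CD44- cells. Its groups overlapped, and the difference was 0.24 ± 0.45 (adjusted p = 0.882), with a second probe at -0.02. Its relative Tapbpl (TAPBPR) had -1.19 and -1.68 against -1.68 and -1.51, a difference of 0.16 ± 0.45 (adjusted p = 0.926). Erap1, the trimming aminopeptidase, had 1.75 and 1.95 in CD44+ cells and 1.26 and 1.42 in CD44- cells. Both CD44+ arrays were higher, but the difference of 0.51 ± 0.44 did not pass (adjusted p = 0.786).

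Of the 3 catalytic immunoproteasome subunits, Psmb9 and Psmb8 had lower signal in CD44+ cells, while Psmb10 and the regulator subunits differed by less than their error. Psmb9 (LMP2) had levels of 0.53 and 0.07 in CD44+ cells and 1.81 and 2.10 in CD44- cells. Both CD44- arrays were well above both CD44+ arrays, and Psmb9 was 3.14-fold lower in the CD44+ mean (log2 -1.65 ± 0.46, unadjusted p = 0.0068, adjusted p = 0.197). Leaving out 1 array at a time gave -1.88 to -1.42. Psmb8 (LMP7) had levels of -1.97 and -1.93 in CD44+ cells and -1.12 and 1.18 in CD44- cells. Here the second CD44- array was far above the first. Psmb8 was 3.95-fold lower in the CD44+ mean (log2 -1.98 ± 0.72, unadjusted p = 0.025, adjusted p = 0.335), its second probe gave -2.24, and the difference was -0.84 without the second CD44- array. Psmb10 (MECL-1) had 4.11 and 4.99 against 4.45 and 4.89, with overlapping groups and a difference of -0.12 ± 0.50 (adjusted p = 0.949). Psme1 and Psme2 form the PA28 cap that opens the proteasome. Psme1 had 3.94 and 4.47 in CD44+ cells and 4.22 and 4.26 in CD44- cells, a difference of -0.03 ± 0.45 (adjusted p = 0.984). Psme2 had 5.74 and 6.08 against 5.99 and 5.68, a difference of 0.08 ± 0.45 (adjusted p = 0.964).

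The constitutive proteasome did not share the direction of Psmb8 and Psmb9. All 16 of its genes listed were tested, none had a difference below 0, and their median was 0.52, with 0 called and 0 at an unadjusted p under 0.05. The 3 constitutive subunits that Psmb8, Psmb9 and Psmb10 replace had differences of 0.72 for Psmb5, 0.31 for Psmb6 and 0.61 for Psmb7, none past the test. Without the second CD44- array these were 0.07, 0.16 and 0.07. Over the 16 genes, the second minus the first CD44- array had a median of -0.82. Within an array, the log2 ratio of Psmb8 to Psmb5 was -6.73 and -6.07 in CD44+ cells and -5.49 and -1.90 in CD44- cells. This ratio of 2 probes has meaning only between arrays, and its difference was -2.70 without overlap, mainly through the second CD44- array. The ratio of Psmb9 to Psmb6 was -5.28 and -6.21 against -4.08 and -3.48, a difference of -1.96 without overlap. The ratio of Psmb10 to Psmb7 was 2.70 and 3.71 against 3.18 and 4.70, a difference of -0.73 with overlap. These 3 ratios do not depend on the scaling between arrays, carry no test, and were chosen after their values were seen.

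**Figure D2:**
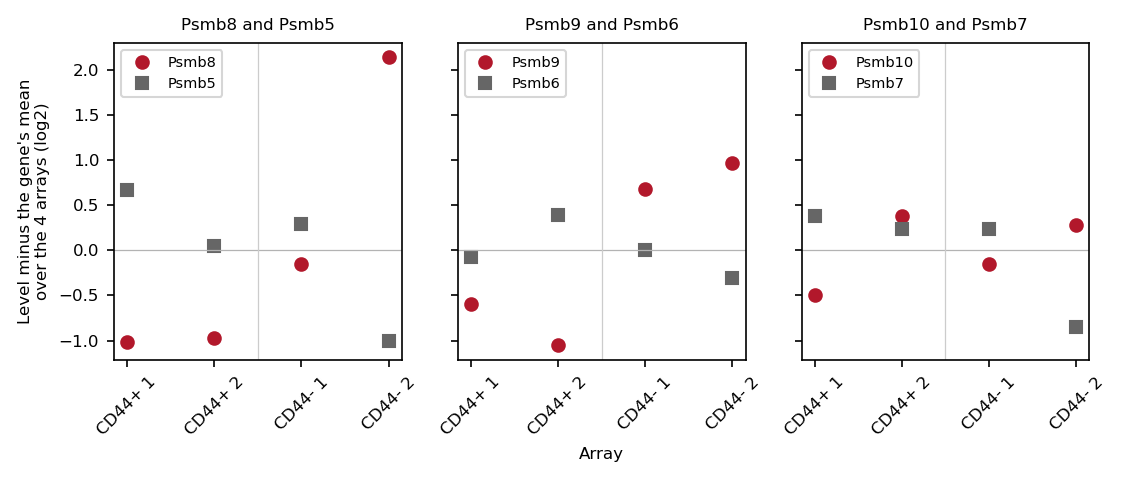
Level minus the gene's mean over the 4 arrays (vertical axis, log2) for each inducible catalytic subunit (circles) and the constitutive subunit it replaces (squares), by array. Psmb8 and Psmb9 are higher on both CD44- arrays than on both CD44+ arrays, whereas Psmb10 is not, and Psmb5 and Psmb7 are lowest on the second CD44- array.

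Psmb9, Tap1, Psmb8 and Tap2 follow each other in this order along chromosome 17, between the class II genes H2-DMb1 and H2-Ob. Psmb9 and Tap1 are read in opposite directions from 1 promoter region: the Tap1 window, chr17:34187306-34187555 on the plus strand, shares 225 of its 250 bases with that of Psmb9, chr17:34187331-34187580 on the minus strand. The Tap1 and Psmb8 windows (RefSeq, GRCm38.p6, Psmb8 at chr17:34197945-34198194 on the plus strand) are printed because both genes and Psmb9 had lower CD44+ signal. Capitals mark, in Tap1, a match to the Y box (CTGATTGG, here on the minus strand, -222 to -215) and to the X box (CCNAG and ACNG parted by 2 bases, -98 to -88). These are letter matches to the kind of element bound by Rfx5-Rfxap and their partners, and binding was not measured. In Psmb8 the capitals mark a match to the core of a gamma-interferon activated site (GAS, TTCNNNGAA, -97 to -89).
Tap1: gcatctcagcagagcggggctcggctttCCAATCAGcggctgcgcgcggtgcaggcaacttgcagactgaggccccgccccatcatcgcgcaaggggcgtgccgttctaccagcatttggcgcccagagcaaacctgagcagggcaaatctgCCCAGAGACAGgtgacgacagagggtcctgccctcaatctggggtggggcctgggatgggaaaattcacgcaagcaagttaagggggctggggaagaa
Psmb8: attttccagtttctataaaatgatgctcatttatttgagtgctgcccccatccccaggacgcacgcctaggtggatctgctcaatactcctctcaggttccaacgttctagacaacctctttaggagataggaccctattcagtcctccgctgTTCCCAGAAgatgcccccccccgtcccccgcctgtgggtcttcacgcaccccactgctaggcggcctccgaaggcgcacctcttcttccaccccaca
Over the 37 genes with a window, the X box occurred in 5 (Tap1, Psmb9, H2-DMb1, H2-M1 and H2-M9) and in 4.29% of all windows. The Y box occurred in 15 genes and in 3.83% of all windows. The Tap1 and Psmb9 matches to both boxes are the same sites in the bases that the windows share, and the H2-M matches lie in related gene copies, so these counts are not of independent sites. The GAS core occurred in 4 (Psmb8, H2-DMb2, H2-M11 and H2-M3) and in 7.02% of all windows. The Cd274 window holds no match to any of the 5 motifs, so none of them can be shared by all windows of the genes with lower CD44+ signal. Tap2, H2-Ab1 and H2-Q8, which also had lower CD44+ signal, had no window and were not searched.

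Of the 4 class II genes with a probe, 2 were tested, H2-Ab1 and Cd74. H2-Ab1, the I-A beta chain, had levels of -2.04 and -2.70 in CD44+ cells and -0.84 and -0.14 in CD44- cells. Both CD44- arrays were above both CD44+ arrays, and H2-Ab1 was 3.68-fold lower in the CD44+ mean (log2 -1.88 ± 0.50, unadjusted p = 0.0053, adjusted p = 0.181). Its other 2 probes gave -1.53 and -1.92, and leaving out 1 array at a time gave -2.23 to -1.53. Its partner, the alpha chain H2-Aa, was not tested: its levels were -5.67, -5.33, -5.01 and -4.32, and only that of the second CD44- array was well above background. Cd74, the invariant chain that guides class II molecules to the endosome, had -2.53 and -3.46 in CD44+ cells and -3.09 and -2.43 in CD44- cells. The groups overlapped, with a difference of -0.23 ± 0.52 (adjusted p = 0.902) that was 0.10 without the second CD44- array. H2-Eb2 was not well above background on any array.

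The peptide editors of class II did not move as 1 group. H2-DMb1 had levels of -0.50 and -0.02 in CD44+ cells and 0.16 and 0.84 in CD44- cells, without overlap and with a difference of -0.76 ± 0.48 (adjusted p = 0.717), or -0.42 without the second CD44- array. Its partner H2-DMa had -3.13 and -4.0 against -3.48 and -3.54, with overlap and a difference of -0.05 ± 0.49 (adjusted p = 0.977). H2-DMb2, not well above background on the first CD44+ array, had a difference of -0.96 (unadjusted p = 0.059). H2-Oa, a chain of the inhibitor H2-O, had -3.14 and -4.25 against -3.51 and -4.0, a difference of 0.06 ± 0.53 (adjusted p = 0.977). The other chain, H2-Ob, had -3.98, -6.95, -4.99 and -4.63 and was well above background only on the second CD44- array.

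Of the regulators, Ciita, which switches on class II genes, had levels of -3.62 and -4.14 in CD44+ cells and -4.20 and -3.86 in CD44- cells. It was well above background on 3 arrays, and its difference was 0.15 ± 0.46 (adjusted p = 0.929). Rfxap, a subunit of the complex on the X box, had 2.32 and 2.67 in CD44+ cells and 1.94 and 1.66 in CD44- cells. Both CD44+ arrays were higher, the difference was 0.69 ± 0.45 (adjusted p = 0.728), and its second probe gave 0.92. Its partner Rfx5 had -5.73, -5.72, -6.13 and -4.94 and was well above background only on the second CD44- array. The 7 tested factors of class I and II promoters outside these genes (Rfxank, Creb1 and subunits of NF-Y and NF-kB) had a median difference of 0.12, with 0 called.

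Cd274, which encodes the PD-1 ligand PD-L1, had levels of -5.64 and -5.46 in CD44+ cells and -4.03 and -1.33 in CD44- cells. Neither CD44+ array had it well above background, and the second CD44- array was far above the first. In the group means Cd274 was at least 3.00-fold lower in CD44+ cells (log2 -2.87 ± 0.80 in the fit, unadjusted p = 0.0072, adjusted p = 0.199). This limit rests mainly on the second CD44- array, and with CD44+ signals raised as for Tap1 the groups overlapped. The fitted difference of Cd274 was -1.52 without the second CD44- array and -0.90 with normexp correction, the latter a smaller fold than the limit. With each array centred on its median it passed, at an adjusted p of 0.0231; over the 13 alternatives its adjusted p ran from 6.4e-07 to 0.882. The costimulatory ligand Cd80 had -5.23, -6.09, -5.39 and -4.10 and was well above background only on the second CD44- array. Its relative Cd86 had -5.68, -7.24, -7.24 and -7.55 and was not well above background on any array. Cd1d1, which presents lipids to NKT cells, had -0.76 and 0.91 in CD44+ cells and -0.52 and 2.16 in CD44- cells. Both second arrays were above both first arrays, and the difference was -0.75 ± 0.90 (adjusted p = 0.826), or 0.59 without the second CD44- array. H2-Ke6, whose symbol is H2- but which is not an MHC molecule, had a difference of -0.47 ± 0.47 (adjusted p = 0.808).

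**Figure D3:**
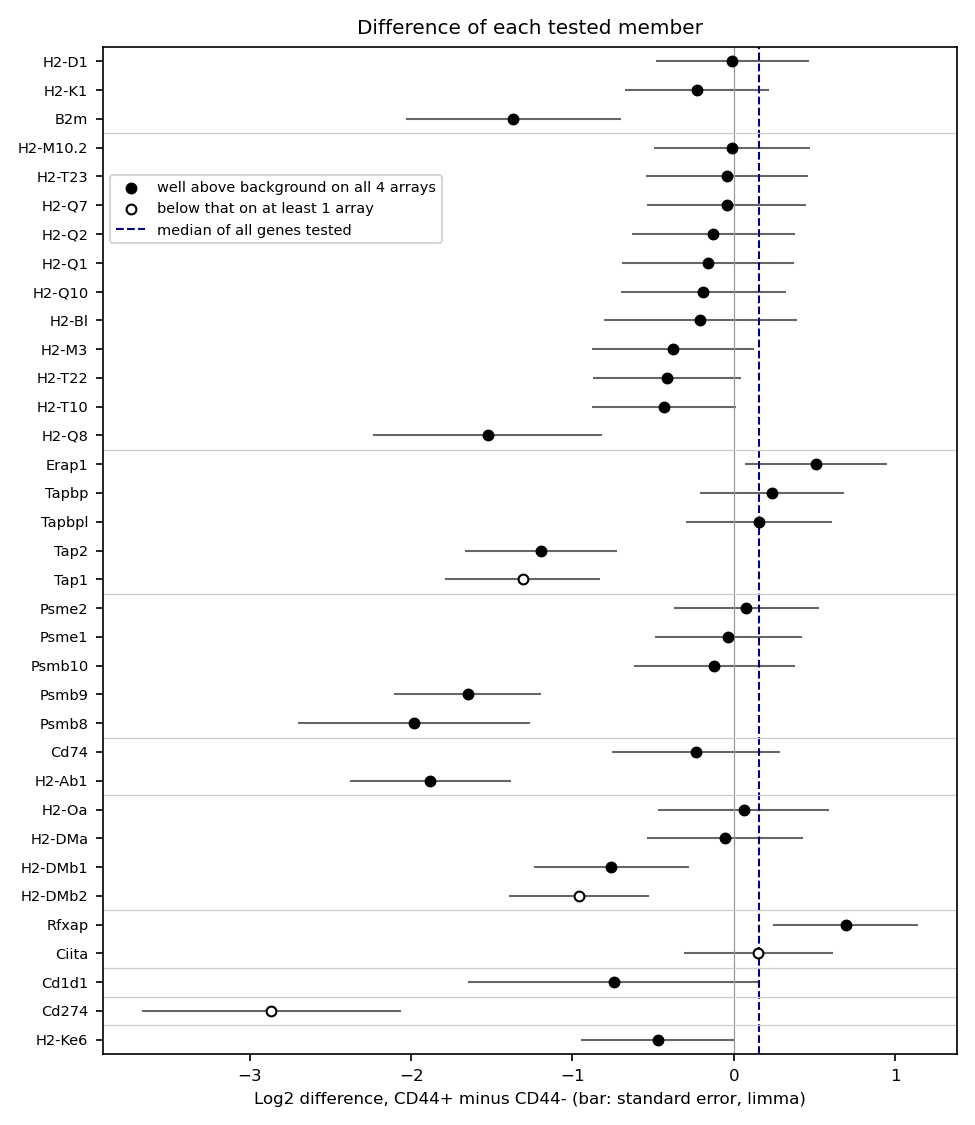
Log2 difference, CD44+ minus CD44-, of each of the 35 tested genes (points) with the standard error of limma's fit (bars), grouped by role, and the median of all genes tested (dashed line at 0.16). Open points mark Tap1, H2-DMb2, Ciita and Cd274, which were not well above background on every array.

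**Figure D4:**
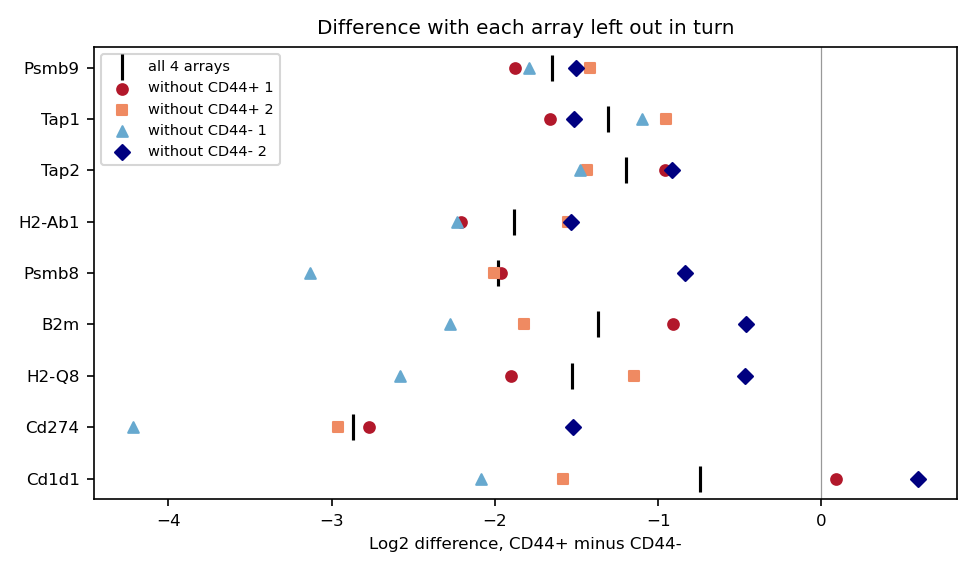
Log2 difference, CD44+ minus CD44- (horizontal axis), of 9 genes with all 4 arrays (vertical bars) and after leaving out any 1 of them (symbols). Psmb9, Tap1, Tap2 and H2-Ab1 stay between -2.23 and -0.91, B2m, H2-Q8, Psmb8 and Cd274 come closest to 0 without the second CD44- array, and Cd1d1 lies on both sides of 0.

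Of 34 interferon-induced genes with a probe, 30 were tested, and none passed the adjusted test. Their median difference was -1.23, or -0.74 without the second CD44- array, against 0.16 and 0.05 for all genes, and 25 of 30 were below 0. At an unadjusted p under 0.05, 14 of 30 were lower (7.9% of all genes) and 1 higher (2.86%). At least 2-fold lower without overlap were 14 of 30 (46.7%, against 9.66%), or 12 of 30 (40.0%, against 9.02%) without the second CD44- array. Of the 30, 10 were tested only through CD44- cells, because they were not well above background on the first CD44+ array, Ifit3 and Usp18 among them. Over the 20 genes above background on all 4 arrays the median was -0.46 (0.24 for all such genes), 15 were below 0, 5 were lower at an unadjusted p under 0.05 (3.11%) and 6 were at least 2-fold lower without overlap (4.29%). Ifit3, an antiviral protein, had levels of -5.16 and -3.68 in CD44+ cells and -1.76 and -0.92 in CD44- cells, a difference of -3.08 ± 0.61 (adjusted p = 0.104), or -1.17 with normexp correction. Usp18, a protease that removes ISG15, had -4.51 and -3.94 against -2.44 and -1.69, a difference of -2.16 ± 0.49 (adjusted p = 0.136), or -0.60 with normexp correction. The T cell chemokine Cxcl10 had -0.47 and 1.59 against 2.51 and 3.58, a difference of -2.49 ± 0.72 (adjusted p = 0.218), or -1.46 without the first CD44+ array. All 3 had both CD44- arrays above both CD44+ arrays. Ido1, a tryptophan-degrading enzyme, went the other way, with -2.56 and -2.42 in CD44+ cells and -3.95 and -4.22 in CD44- cells (difference 1.60 ± 0.44, adjusted p = 0.197). On the second CD44- array 13 of the 30 had at least 2-fold more signal than on the first.

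The 16 genes of interferon signalling were all above background on every array, with a median difference of -0.16, 0 called, and 1 lower and 0 higher at an unadjusted p under 0.05. That gene was Socs1, a feedback inhibitor, with -0.69 and -1.07 in CD44+ cells and -0.20 and 0.98 in CD44- cells (difference -1.27 ± 0.53, unadjusted p = 0.044, adjusted p = 0.440), or -0.69 without the second CD44- array. The transcription factor Irf1 had 3.30 and 3.95 against 3.75 and 5.20, with overlap and a difference of -0.85 ± 0.59 (adjusted p = 0.752), or -0.13 without the second CD44- array. Ifng itself, the gene of interferon-gamma, was not well above background on any array.

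The remaining gene lists around antigen presentation held no called gene. The 6 tested chaperones of class I folding had a median of 0.35, and the 8 tested genes of endosomal processing, cathepsins among them, a median of 0.36, with 0 at an unadjusted p under 0.05 in both. The 5 tested class I-like genes had a median of -0.61. Among them Procr, the endothelial protein C receptor, had -0.62 and 0.69 in CD44+ cells and 1.5 and 4.14 in CD44- cells (difference -2.78 ± 0.86, unadjusted p = 0.012, adjusted p = 0.242), or -1.46 without the second CD44- array. The 6 tested costimulatory and checkpoint ligands had a median of 0.12 and went both ways. Cd83, a marker of mature dendritic cells, was above background only in CD44- cells. Its fitted difference was -3.32 ± 0.90 (adjusted p = 0.190), or -1.91 without the second CD44- array and -0.75 with normexp correction. Tnfsf9, the 4-1BB ligand, had -1.51 and -1.5 in CD44+ cells and -3.23 and -2.62 in CD44- cells (difference 1.42 ± 0.46, adjusted p = 0.276).

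Markers of other cell types moved between the arrays along with some of these genes. Summed signal, in units of the array's 75th percentile, was 1.41, 2.51, 7.23 and 117 for 10 endothelial genes and 12.6, 49.5, 80.9 and 486 for 12 fibroblast genes, in the array order above. Both sums were highest on the second CD44- array. That array was also the highest for 12 of the 35 genes (34.3%, against 25.3% of all genes). Among them were B2m, H2-Q8, Psmb8, Psmb9, Tap2, H2-Ab1, Cd1d1 and Cd274. For 11 of the 35 the first CD44- array, with lower sums, was the highest. Both sums were also higher on the first CD44- array than on both CD44+ arrays. Of the 8 endothelial and 12 fibroblast genes tested, 7 and 8 were lower in CD44+ cells at an unadjusted p under 0.05, where 7.9% of all genes were, and 0 passed the adjusted test. Differences were -4.74 for Flt1, -2.20 for Esam, -3.46 for Dcn and -3.18 for Col1a2. They rest in large part on the second CD44- array, which exceeded the first by 4.05, 3.03, 2.43 and 2.91 (log2) for these genes. The 7 epithelial genes summed to 2166, 1553, 1970.3 and 845, so that the sum was lowest on the second CD44- array. Differences were 0.39 for Krt8 and 0.50 for Krt18. Most of the sum was the keratins Krt8, Krt18 and Krt19. Of the 7 genes, 1 was below 0, Cldn4 at -2.19 ± 0.69 (unadjusted p = 0.013), while Cldn7 differed by 1.84 ± 0.44 (unadjusted p = 0.0031). Cldn4 and Cldn7 were chosen after their values were seen. The part of these cell types in the differences of the antigen presentation genes was not tested.

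Marker lists of leukocytes, antigen-presenting cells included, held genes that went either way, except the B and plasma cell and mast cell lists. Below 0 were 1 of 5 tested dendritic cell genes and 2 of 7 T and NK cell genes, with medians of 0.25 and 0.37. No tested B and plasma cell gene or mast cell gene (7 of each) was below 0, with medians of 0.41 and 1.45. The 10 dendritic cell genes summed to 1.39, 0.615, 0.782 and 0.900, and 4 of them (Itgax, Cd209a, Siglech and Clec10a) were not well above background on any array. The 12 macrophage genes summed to 62.5, 60.6, 37.9 and 48.1, with Adgre1, Itgam and Fcgr1 on no array. Most of that sum was Cd14, which differed by 1.29 ± 0.45 (unadjusted p = 0.021). Without it the other 11 genes summed to 13.3, 2.15, 18.8 and 22.8, higher on both CD44- arrays. Most of this second sum was Lyz2, with levels of 3.52, 0.49, 4.16 and 4.46. Lyz2 differed by -2.30 ± 0.88 (unadjusted p = 0.030) and C1qc, not well above background in CD44+ cells, by -1.83 (unadjusted p = 0.0040). These were the 2 of 7 tested macrophage genes below 0. Csf1r, C1qa, C1qb and Cx3cr1 differed by 0.33, 0.17, 0.60 and 0.58. The 9 B and plasma cell genes summed to 28.9, 54.8, 36.7 and 30.4, nearly all of it Blnk, without which the other 8 summed to 0.868, 0.665, 0.560 and 0.653, with Ms4a1 on no array. The 11 T and NK cell genes summed to 1.75, 0.965, 1.1 and 1.06, with Cd3d, Cd3g, Ncr1 and Gzma on no array. The 10 general leukocyte genes summed to 7.79, 7.74, 8.35 and 6.98, and without Lcp1 the other 9 summed to 3.00, 3.52, 4.23 and 4.43, higher on both CD44- arrays. Ptpn6, the brightest of those 9, was likewise higher on both CD44- arrays, with levels of 0.11, 0.79, 1.41 and 1.40. Of the 10 genes, all tested, 4 had a difference below 0, and the median difference was 0.42. Among them Cd53 was, by processed signal, at least 9.06-fold higher in CD44+ cells (adjusted p = 0.024). Over the 13 alternatives the fitted log2 difference of Cd53 ran from 1.64 to 4.19. Vav1 differed by -3.16 ± 0.62 (unadjusted p = 0.00097, adjusted p = 0.105) and Laptm5 by -1.48 ± 0.57 (unadjusted p = 0.033). Ptprc (CD45) had a difference of -0.66 ± 0.47 (adjusted p = 0.765). The sums without 1 gene, and Vav1, Laptm5, C1qa, C1qb, C1qc, Csf1r and Cx3cr1, were chosen after their values were seen. The part of leukocytes in the differences of the antigen presentation genes was not tested. The 9 mast cell genes summed to 10.6, 15.0, 3.53 and 3.24, with 1 gene called higher in CD44+ cells and Ms4a2 on no array. Of the 7 tested, the 4 proteases Mcpt1, Mcpt2, Mcpt4 and Cma1 were higher at an unadjusted p under 0.05. Kit, Fcer1a and Tpsb2 differed by only 0.06, 0.13 and 0.05. Cd44, the sorting marker, was 3.34-fold higher in CD44+ cells (log2 1.74 ± 0.49, adjusted p = 0.199), with both CD44+ arrays above both CD44- arrays, and Epcam differed by 1.66 ± 0.46 (adjusted p = 0.199).

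**Figure D5:**
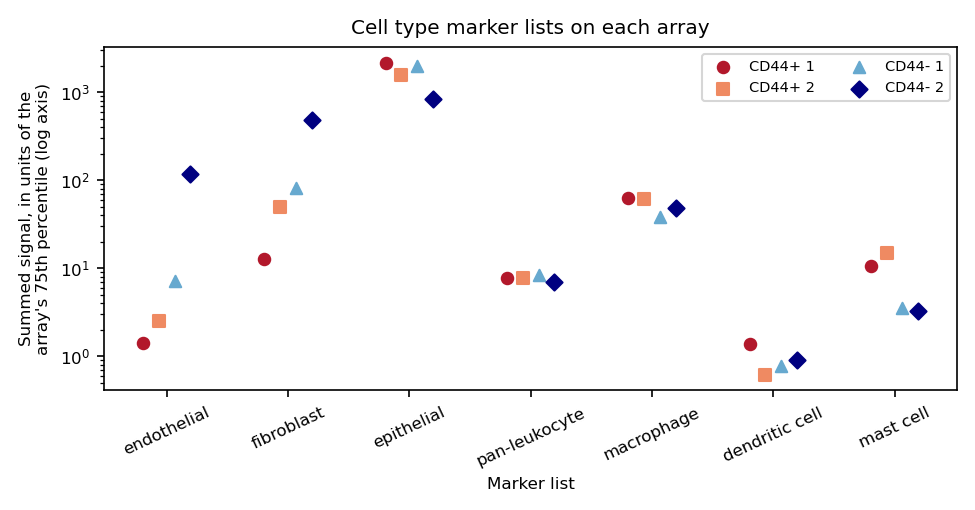
Summed signal of 7 marker lists on each of the 4 arrays, in units of the array's 75th percentile (vertical log axis), with 1 symbol per array. Endothelial and fibroblast sums are highest on the second CD44- array, at 117 and 486, mast cell sums are higher on both CD44+ arrays, and the general leukocyte sums stay between 6.98 and 8.35.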

How the data were processed

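RNA of 4 sorted samples was measured, 1 per array; per the labels' protocols, amplification started from 25 ng of RNA, and 0.2 ug of the product labelled with Cy3. Per the file headers, the authors' scanner tables come from Agilent Feature Extraction 10.1.1.1, whereas the submitters' processing notes name version 9.5. The deposited processed signal is a linear intensity after background subtraction, and deposited 0 or 1 flags mark outliers and saturation and show which spots were well above background. The authors' deposited value table holds a linear ratio with no description. For 10728 probes above a signal of 200 on all arrays it matched the scanner values up to 1 factor per array (SD at most 0.00161, log2). Their medians over the arrays all equalled 1 to within 0.001, the table's lowest value was 0.01, and its column medians were 0.853, 0.989, 0.928 and 0.739; how the factors were set is unknown.

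Control and outlier spots (109 to 133 per array) were left out of 45018, and spots of a probe were averaged. Values are log2 of the signal minus the array's 75th percentile. Accessions were matched to mouse RefSeq genes (GRCm38.p6), which named 24375 of 41174 probes. Genes well above background throughout 1 group or the other were tested by their brightest probe with limma 3.58.1 in R 4.3.3 without covariates, adjusted by Benjamini-Hochberg over 21045 genes. The variance model added 6.01 to 2 residual degrees of freedom. All arrays came from 1 slide and 1 scan. The number of arrays limits the precision. Levels on every array were given for a fixed set of genes and for others at least 2-fold apart without overlap; of each list outside, up to 3 genes per direction with the smallest unadjusted p were eligible, and 1 gene that this rule names is not reported here. The genes, lists and rules were chosen with earlier results of these data known. The fit was tested on simulated data.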

Additional observations from a re-analysis of the deposited data

How the results depend on the processing

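The 8 genes with measured signal at least 2-fold lower in CD44+ cells (B2m, H2-Q8, Tap1, Tap2, Psmb8, Psmb9, H2-Ab1 and Cd274) stayed below 0 in all 110 values from the alternatives, Tap1 at -0.03 with normexp. They were picked as at least 2-fold lower without overlap, so leaving out 1 array could not change their sign. The number of such genes among the 35 was 4 to 10 with 1 array left out and 6 with dim signals held at the background level, both chosen after seeing the data. The median of the genes described stayed below 0, from -0.46 to -0.09. How many genes passed depended on the settings, and the cause was not tested. Of all genes, 84 passed, against 748 with each array centred on its median, 753 with the authors' deposited table, 541 with normexp background correction, 242 with a trended robust variance, 24 with no filter on dim probes, 6 with quantile normalization and 3 with the percentile over probes detected on all arrays. Leaving out 1 array gave 2 to 1590. The share called higher was 5.95%, and 16.2%, 16.1%, 18.1%, 0% and 0% with median centring, the authors' table, normexp, quantile normalization and the detected percentile. Of the genes described, 0 passed, against 1 (Cd274) with median centring and with the authors' table, and 0 to 6 with 1 array left out; the 6, without the first CD44- array, were H2-Ab1, B2m, Cd274, Psmb8, Cd1d1 and H2-Q8. Median centring moved the median of all genes from 0.16 to 0.26, and the detected percentile to 0.02. The replicate numbers are shared between the groups, but nothing says that they pair the samples; same-numbered deviations correlated at 0.35 over 21045 genes. With the number as a block 1829 genes passed, 5 of them described here (H2-Ab1, Cd274, Psmb8, Psmb9 and H2-Q8).

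Differences near 0 changed sign. With median centring H2-D1 was 0.0958, H2-T23 0.0638, H2-DMa 0.0505 and Psme1 0.0709, and with values of the authors' deposit H2-D1 was 0.0940, H2-T23 0.0620, H2-DMa 0.0487 and Psme1 0.0691. With the detected percentile H2-Oa was -0.0706 and Psme2 -0.0546. With quantile normalization H2-DMa was 0.0806 and Psme2 -0.14. With normexp H2-D1 was 0.0220, H2-DMa 0.17 and Psme2 -0.0025. Leaving out 1 array moved H2-D1 from -0.30 to 0.28, H2-T23 from -0.54 to 0.46, H2-M3 from -0.87 to 0.11, Cd74 from -0.70 to 0.23, H2-DMa from -0.49 to 0.38, H2-Oa from -0.49 to 0.62, Tapbpl from -0.0914 to 0.40, Psmb10 from -0.56 to 0.32, Psme1 from -0.30 to 0.23, Psme2 from -0.0901 to 0.24, Ciita from -0.11 to 0.41 and Cd1d1 from -2.08 to 0.59. Of 347 values of the genes described under the alternatives, 299 kept direction and call, 13 passed the test in addition and 35 changed sign. A group left with 1 array was assumed to vary like the other. A slide or scan block could not be fitted, with 1 of each. Genes such as Tap1 and Cd274, near background in CD44+ cells, have only a lower limit of the fold by processed signal, and normexp gave smaller folds.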
